A study of Mesocricetus auratus with 38 samples.

Results

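The cells of the liver both make and use glucose, and Pck1, Pck2, Fbp1, Pfkl, Pfkfb1 and Slc2a2 act at steps that set the direction of that traffic. All 6 genes, chosen by name for their place in gluconeogenesis and glycolysis, were found by symbol among the 14631 genes of the deposited tables, and all 6 passed the filter on low counts. Liver RNA of male Golden Syrian hamsters (Mesocricetus auratus) aged about 22 weeks was sequenced in 38 libraries of 4 groups. The Chow diet group (the control, 9 libraries) received a normal diet in which fat gave 11% of the calories. The HFD group (10 libraries) was fed, over the same 12 weeks, a cholesterol-enriched diet in which fat gave 23% of the calories, and was given a placebo. The HFD + MI_D1 group (Dose I, 9 libraries) and the HFD + MI_D2 group (Dose II, 10 libraries) stayed on the HFD and were given combined metabolic activators (CMA) during the last 4 weeks. CMA held L-carnitine, N-acetylcysteine and nicotinamide riboside at 200 mg/kg each in Dose I and 400 mg/kg each in Dose II, mixed into condensed milk, with betaine at 400 or 800 mg/kg in the drinking water. The animals were housed singly and fasted for 6 h before the livers were taken. The samples are whole liver, so less RNA of a gene per cell and fewer cells that express it cannot be told apart. The labels name no animals, each library was taken as 1 animal, and the p-values measure the spread between libraries.

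In gluconeogenesis, the path that the fasted liver uses to release glucose, phosphoenolpyruvate carboxykinase turns oxaloacetate into phosphoenolpyruvate. Pck1 encodes its cytosolic form, a classic target of glucagon and of insulin, and Pck2 the mitochondrial form, which in mouse and human cells is also under the amino acid stress response. Fbp1, fructose bisphosphatase, removes a phosphate from fructose bisphosphate in the direction of glucose. Pfkl, the liver subunit of phosphofructokinase, drives the same step in the opposite direction, towards glycolysis. Pfkfb1 makes and breaks down the signalling sugar phosphate that activates phosphofructokinase and inhibits fructose bisphosphatase, and Slc2a2 encodes GLUT2, the carrier through which glucose enters and leaves the hepatocyte.

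Total estimated counts ran from 4.08e+06 to 1.04e+07 per library. Control library C105 (control libraries are named C, HFD libraries H, and those of Dose I and Dose II DI and DII, each followed by the sample's own number) stood apart from the other controls. Its score on the first principal component was 19.2, against -23.1 to -12.7 in the other 8 controls and -23.1 to 12.3 over all of the other 37 libraries. The study left out 1 control library after its own principal component analysis, taken here to be C105, and values over the other 37 libraries are given first, with those over all 38 beside them. Hepatocyte markers were high in every library (5 genes), with a summed level of 131873 to 156275 TPM in the 8 controls, 98856 to 131004 TPM in the HFD group, 101269 to 120569 TPM at Dose I and 89441 to 117492 TPM at Dose II. Albumin, with a mean of 90068 TPM over the 37 libraries, made up most of this sum. The share of all counts taken by albumin was 16.9 to 20.02% in the 8 controls and 11.3 to 15.8% in the HFD group. Of the 5 hepatocyte markers, 1 rose and 3 fell in HFD against control, beside 36.2% of all genes called (0 and 2 over all 38 libraries, beside 15.6%). At Dose II against HFD 1 rose and none fell, beside 5.63%. Of 9 macrophage markers 6 rose and none fell in HFD against control, where 36.2% of all genes changed (2 rose over all 38 libraries, beside 15.6%). The summed level of the 9 was 128.1 to 188 TPM in the 8 controls and 185 to 306 TPM in the HFD group. The part of these shifts in the levels of the 6 genes was not tested.

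The 6 genes fell into an abundant and a scarce trio. In TPM (estimated counts scaled for transcript length and library size, which allows levels of different genes to be compared), Fbp1 averaged 1261 ± 132.5 (SD over 37 libraries), Pck1 778 ± 312 and Slc2a2 324 ± 65.96, all at or above the 96.9th percentile of the 9099 genes tested. Pfkfb1 averaged 25.7 ± 4.40 TPM, Pfkl 20.1 ± 3.86 and Pck2 16.2 ± 5.03, between the 67.6th and the 76.6th percentile. Slc2a2 was higher than Pfkfb1 in 37 of 37 libraries with no overlap of their ranges, so the trios never mixed. Within them the order was looser. Fbp1 was above Pck1 in 32 of 37 libraries, among them 8 of 8 controls and 10 of 10 HFD libraries, but in 6 of 9 at Dose I and 8 of 10 at Dose II. Pck1 was above Slc2a2 in 35 of 37, and both exceptions were controls. Pfkfb1 was above Pfkl in 28 of 37, among them 8 of 8 controls but 7 of 10 HFD libraries. For Pfkl and Pck2, the last in the order, Pfkl was the higher gene in 1 of 8 controls, 9 of 10 HFD libraries, 7 of 9 at Dose I and 9 of 10 at Dose II. Among neighbours in this order, only Slc2a2 and Pfkfb1 had ranges over the 37 libraries that did not overlap.

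**Figure D1:**
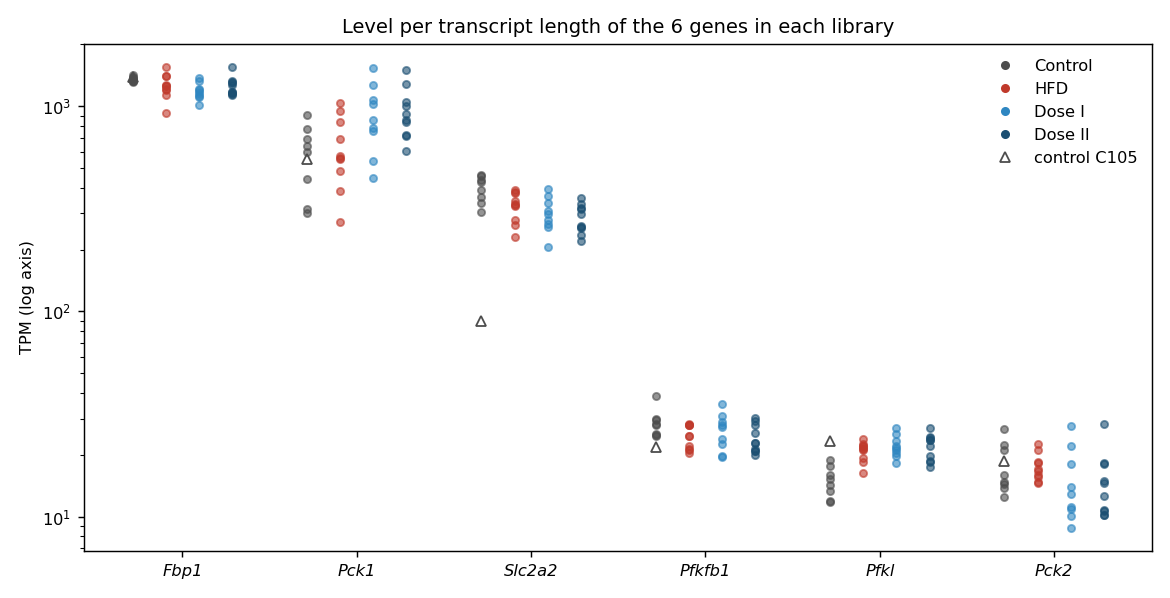
TPM (log axis) of each gene in each of the 38 libraries, 1 point per library, grouped by gene and coloured by group, with control C105 as an open triangle. Fbp1, Pck1 and Slc2a2 lie well above Pfkfb1, Pfkl and Pck2, and C105 is the lowest point of Slc2a2 at 89.8 TPM.

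The genes also differed in how evenly the animals expressed them. The biological coefficient of variation that edgeR fitted was 35.1% for Pck1, higher than that of 93.9% of the genes tested, and 25.9% for Pck2 (the 82.2nd percentile). It was 12.8 to 15.8% for Fbp1, Pfkl, Pfkfb1 and Slc2a2, in the lower or middle part of the distribution. For Pck1 the estimated counts ran from 3992 to 27305 per library. Pck2 was counted 78 to 310 times per library, and Pfkfb1 290 to 899 times.

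The comparison of HFD with the control group asked what the diet did to these genes. Of the 6 genes, 1 rose and 1 fell at an adjusted p under 0.1 (edgeR quasi-likelihood test, Benjamini-Hochberg over 9099 genes), where 36.2% of all genes tested changed, 18.1% upwards and 18.1% downwards. Pfkl rose and Slc2a2 fell, whereas Pck1, Pck2, Fbp1 and Pfkfb1 did not pass. The count of 2 of 6 lies close to the background share. With C105 included no member passed, and 15.6% of all genes did.

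Pfkl, the enzyme of the glycolytic direction, had normalised CPM (counts scaled for library size and composition) of 34.5, 42.02 and 53.97 in the controls (lowest, median, highest), and 46.97, 60.7 and 68.9 in the HFD group. Of the 10 HFD libraries 8 were above the highest of the 8 controls, and all 10 were above the control median, so the groups overlapped at their edges only. The rise was 1.42-fold (log2 fold change 0.50 ± 0.10 SE, unadjusted p = 2.02e-05, edgeR adjusted p = 0.000555). C105 had 94.3 CPM of Pfkl, above every other library of the study. Over all 38 libraries the log2 fold change was 0.33 ± 0.13 and the adjusted p 0.107. With other libraries left out in turn, the adjusted p of Pfkl stayed between 0.000237 and 0.00186.

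Slc2a2, the glucose carrier, had 452, 586 and 649 CPM in the controls and 360, 483 and 570 CPM in the HFD group (lowest, median, highest). No HFD library reached the control median, and 3 of 10 lay under the lowest control. The level was 0.828 times that of the controls (log2 fold change -0.27 ± 0.10 SE, edgeR adjusted p = 0.0455). C105, at 182 CPM, had the lowest level of all libraries, and with it the log2 fold change was -0.16 ± 0.14 (adjusted p = 0.503). The call was also lost without control C109 (-0.23, adjusted p = 0.112) or without H118 (-0.23, adjusted p = 0.114). Within the groups, the level of Slc2a2 moved with the trend of each library with gene length (Pearson r = 0.63 over 37 libraries, a description only), a trend that was 0.107 to 0.337 (Spearman's rho) in the 8 controls, -0.218 to 0.152 in the HFD group and -0.356 in C105. With that trend removed, Slc2a2 was at -0.31 (adjusted p = 0.0335) without C105 and at -0.19 (adjusted p = 0.443) with it. The removal shifts each gene by the trend at its own length. Slc2a2 is among the shorter genes (29.0th percentile of length) yet was higher where the trend was higher. The removal therefore cannot take out this relation, whose part in the fall was not tested.

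The other 4 genes did not pass. Fbp1 had 1738, 1812 and 1927 CPM in the controls and 1194, 1693 and 2110 CPM in the HFD group. The control values were tightly packed and the HFD values lay on both sides of them, 6 below and 2 above. The log2 fold change of Fbp1 was -0.08, with an interval of 2 SE from -0.24 to 0.08 (adjusted p = 0.496). Pfkfb1 had 69.8, 84.6 and 111.8 CPM in the controls and 59.3, 70.7 and 89.3 CPM in the HFD group. In 2 of 10 HFD libraries Pfkfb1 was above the control median, and its log2 fold change was -0.20 (-0.41 to 0.02, unadjusted p = 0.0705, adjusted p = 0.163). Both phosphoenolpyruvate carboxykinases had means close to those of the controls. Pck1 had 859, 1646 and 2587 CPM in the controls and 728, 1564 and 2899 CPM in the HFD group, and its log2 fold change was 0.15 (-0.33 to 0.63, adjusted p = 0.686). Pck2 had 17.6, 21.3 and 34.8 CPM in the controls and 20.3, 23.5 and 30.3 CPM in the HFD group, and its log2 fold change was 0.01 (-0.36 to 0.37, adjusted p = 0.984). The intervals of Pck1 and Pck2 were the widest of the 6.

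**Figure D2:**
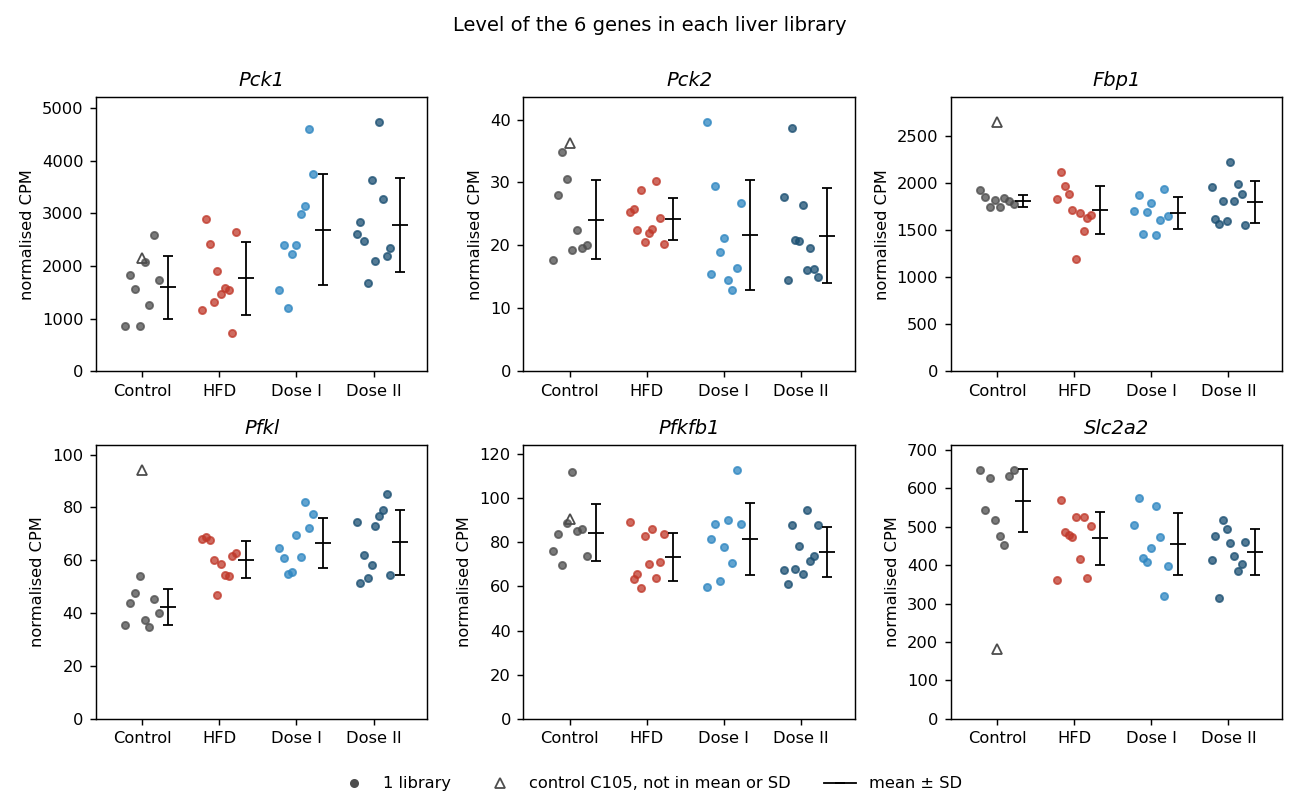
Normalised CPM of the 6 genes, 1 point per library in 4 groups, with the mean ± SD at the right of each group and control C105 as an open triangle outside the mean. Pfkl is higher and Slc2a2 lower in the 3 HFD-fed groups than in the 8 controls, while the points of Pck1 reach 4596 CPM at Dose I and 4735 CPM at Dose II against 2899 CPM in the HFD group.

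The comparisons of each CMA dose with HFD asked whether the activators changed these genes in animals on the same diet. None of the 6 genes passed at Dose I, where 0.187% of all genes changed, and none passed at Dose II, where 5.63% changed. Over all 38 libraries none passed at either dose as well, beside 0.0553% and 2.70% of all genes. At an unadjusted p under 0.05, Pck1 alone of the 6 would have been counted at each dose. The share of all genes under 0.05 is not given for these comparisons, so no conclusion is drawn from this count. The 5 genes other than Pck1 had log2 fold changes between -0.17 and 0.15 at both doses.

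Pck1, the cytosolic carboxykinase, had 1195, 2389 and 4596 CPM at Dose I and 1675, 2539 and 4735 CPM at Dose II (lowest, median, highest). All 10 libraries of Dose II and 7 of 9 of Dose I were above the HFD median of 1564 CPM, and 3 and 4 of them were above the highest HFD library. The groups still overlapped over most of their range: 8 of 10 HFD libraries were above the lowest library of Dose I and 4 of 10 above the lowest of Dose II. The log2 fold change was 0.61 ± 0.23 SE at Dose I (unadjusted p = 0.0126, edgeR adjusted p = 0.402) and 0.66 ± 0.23 at Dose II (unadjusted p = 0.00625, edgeR adjusted p = 0.104). The mean level was thus 1.52 and 1.58 times that of HFD, and the estimate at Dose II missed the threshold narrowly. Of 11 other ways of processing, 2 passed: DESeq2, which the study used (adjusted p = 0.0931), and HFD and Dose II alone in the fit (0.0910). Over all 38 libraries the edgeR adjusted p was 0.148. Of 20 fits that each left out 1 library, 5 passed and 15 did not (adjusted p up to 0.217). Those 5 lacked H111, H112, H119, DII132 or DII134 (0.0669 to 0.0991). These were the highest HFD and the lowest Dose II libraries for Pck1, so leaving them out raised the estimate.

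Because the estimates of Pck1 at both doses lay so close, the mean of the doses was also set against HFD, a comparison added after these values were seen. In it 4.91% of all genes changed, 2.75% upwards. Pck1 was the only member of the 6 that passed, with a log2 fold change of 0.63 ± 0.20 SE (1.55-fold, edgeR adjusted p = 0.0867), and its adjusted p was 0.120 over all 38 libraries, where 2.42% of all genes changed. Leaving out each library in turn gave log2 fold changes from 0.53 to 0.74 with adjusted p from 0.0439 to 0.173, and 15 of these 29 fits lost the call. The estimate was positive in all 29 of these fits, whereas its side of the threshold depended on single libraries.

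Some markers of periportal hepatocytes, the cells around the portal vein in which gluconeogenesis is strongest in rodents, changed at Dose II against HFD, a comparison in which Pck1 did not pass. Of 7 periportal markers 3 rose and none fell, beside 5.63% of all genes called: Sds, serine dehydratase (log2 fold change 1.08, adjusted p = 0.0691), Cyp2f2 (0.56, 0.0569) and Ass1 (0.48, 0.0344). Their summed level was 2416 to 3899 TPM in the HFD group, 2800 to 4676 TPM at Dose I and 3113 to 4596 TPM at Dose II, and 3271 to 4293 TPM in the 8 controls. None of the 7 was at 0 throughout. Of 5 tested markers of pericentral hepatocytes, those around the central vein, none passed at Dose II against HFD. Their median log2 fold change was 0.24, in the same direction as the 0.36 of the 7 periportal markers, against -0.004 for all genes. Of 9 macrophage markers, 5 fell at Dose II against HFD, beside 5.63% of all genes called, and 1 over all 38 libraries, beside 2.70%. The summed level of the 9 was 138.3 to 281 TPM at Dose I and 128.6 to 229.7 TPM at Dose II. The part of these cell markers in the level of Pck1 was not tested.

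Pck2, the mitochondrial carboxykinase, was not called at either dose. It had 12.9, 18.98 and 39.6 CPM at Dose I and 14.6, 20.1 and 38.6 CPM at Dose II. The highest value of each dose (DI120 and DII131) stood above every HFD library, while 5 libraries at each dose were under the lowest of them, so the treated groups were more spread out than HFD on both sides. The log2 fold change against HFD was -0.16 (-0.52 to 0.20) at Dose I and -0.17 (-0.51 to 0.18) at Dose II, and neither passed (adjusted p = 0.844 and 0.646). Of the 5 genes tested from a list of the amino acid stress response, 1 fell at Dose II, beside 5.63% of all genes called: Phgdh, which starts serine synthesis (-0.96, adjusted p = 0.0864). That gene did not pass over all 38 libraries.

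For Fbp1, Pfkl, Pfkfb1 and Slc2a2 the interval of the difference between each dose and HFD included 0. Fbp1 had 1439, 1684 and 1935 CPM at Dose I and 1552, 1802 and 2219 CPM at Dose II, with intervals of its log2 fold change of -0.18 to 0.13 and -0.09 to 0.22. Pfkl had 54.8, 64.7 and 82.1 CPM at Dose I and 51.2, 67.6 and 84.9 CPM at Dose II, with intervals of -0.05 to 0.34 and -0.04 to 0.34. Pfkfb1 had 59.9, 81.8 and 113.1 CPM at Dose I and 60.9, 72.6 and 94.7 CPM at Dose II, with intervals of -0.06 to 0.36 and -0.16 to 0.24. Slc2a2 had 321, 444 and 574 CPM at Dose I and 313, 440 and 519 CPM at Dose II, with intervals of -0.25 to 0.15 and -0.31 to 0.08.

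Between the doses no gene of the 9099 passed in edgeR, and DESeq2 gave 0 as well. At an unadjusted p under 0.05 there were 271 genes, of which 0 were among the 6. The log2 fold change of Dose II against Dose I was 0.05 (-0.42 to 0.51) for Pck1 and lay between -0.11 and 0.09 for the other 5. The widest interval after that of Pck1 was that of Pck2 (-0.37 to 0.35).

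**Figure D3:**
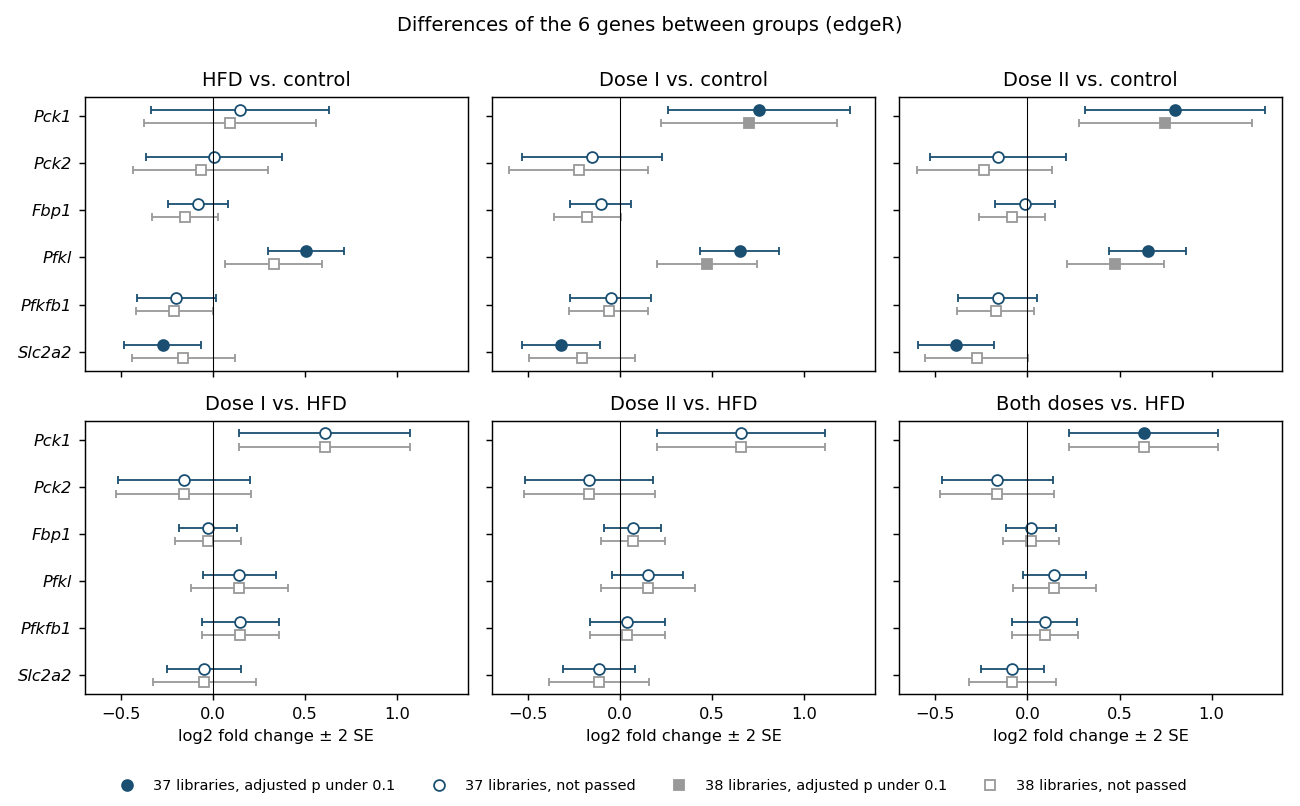
Log2 fold change of each gene with an interval of 2 SE in 6 comparisons, over 37 libraries (circles) and over all 38 (squares), filled where the adjusted p was under 0.1. Pck1 and Pfkl are filled over both sets of libraries in the comparisons of each dose with control, and Slc2a2 only over 37.

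The comparison of the treated groups with the control group set the HFD and CMA together against the normal diet, and shares its control libraries with the comparison of HFD with control. Of the 6 genes, 3 changed at Dose I, where 40.7% of all genes did, and 3 at Dose II, where 47.4% did. They were Pck1, Pfkl and Slc2a2 at each dose. Over all 38 libraries Pck1 and Pfkl passed at each dose, with a background of 21.8% at Dose I and 32.9% at Dose II.

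Pck1 rose 1.69-fold at Dose I (log2 fold change 0.75 ± 0.25 SE, adjusted p = 0.0178) and 1.74-fold at Dose II (0.80 ± 0.24, adjusted p = 0.00788). All 10 libraries of Dose II exceeded the control median, and 5 of them exceeded the highest control, C108. With C105 included the rises were 1.62-fold (adjusted p = 0.0423) and 1.68-fold (adjusted p = 0.0178), and no library left out in turn ended either call.

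Pfkl rose 1.57-fold at each dose, with a log2 fold change of 0.65 ± 0.11 SE at Dose I (adjusted p = 1.99e-05) and 0.65 ± 0.10 at Dose II (adjusted p = 5.7e-06). At Dose I all 9 libraries lay above all 8 controls, as 3.67% of all genes separated from the controls at that dose. At Dose II 8 of 10 lay above them. With C105 the rises were 1.39-fold at each dose (adjusted p = 0.0163 and 0.00767). The side by side values of the 3 HFD-fed groups against control were log2 0.50, 0.65 and 0.65, and the step from HFD to either dose did not pass.

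Slc2a2 fell to 0.801 times the control level at Dose I (log2 fold change -0.32 ± 0.11 SE, adjusted p = 0.0188) and to 0.764 times at Dose II (-0.39 ± 0.10, adjusted p = 0.00274). None of the 19 treated libraries reached the control median. Over all 38 libraries neither passed (-0.21, adjusted p = 0.338, and -0.28, adjusted p = 0.143). Fbp1, Pck2 and Pfkfb1 did not pass against control at either dose in these fits, with log2 fold changes from -0.16 to -0.01. On log2(TPM + 1) values in limma, Fbp1 at Dose I (-0.19, adjusted p = 0.0343) and Pfkfb1 at Dose II (-0.24, adjusted p = 0.0638) did.

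Ratios within a library do not depend on the scaling between libraries, but can depend on each library's trend with gene length. Both ratios pair genes of unlike length (relative to the median gene, Fbp1 0.64 and Pfkl 1.36, Pck1 1.31 and Pck2 0.66). The mean trend was 0.20 in the 8 controls, -0.01 in the HFD group, -0.06 at Dose I and -0.12 at Dose II. The part of this trend in the ratios was not tested. Fbp1 and Pfkl catalyse opposed directions of the same step, and the log2 ratio of their TPM was 6.53 ± 0.24 (SD) in the 8 controls, with a range of 6.17 to 6.86. In the HFD group it was 5.91 ± 0.22 (5.44 to 6.28), at Dose I 5.75 ± 0.21 (5.38 to 6.03) and at Dose II 5.85 ± 0.19 (5.55 to 6.16). The control range was thus above that of Dose I and nearly touched that of Dose II (lowest control 6.167, highest library of Dose II 6.164). It overlapped that of HFD slightly. C105, at 5.90, lay among the HFD-fed animals. The log2 ratio of Pck1 to Pck2, the cytosolic to the mitochondrial enzyme, was 4.99 ± 0.73 in the controls, 5.09 ± 0.69 in the HFD group, 5.94 ± 1.03 at Dose I and 6.02 ± 0.70 at Dose II. Its ranges overlapped in all groups (3.82 to 6.04, 3.90 to 6.03, 4.29 to 7.14 and 5.01 to 7.21). These ratios are descriptions of the libraries and were not tested.

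**Figure D4:**
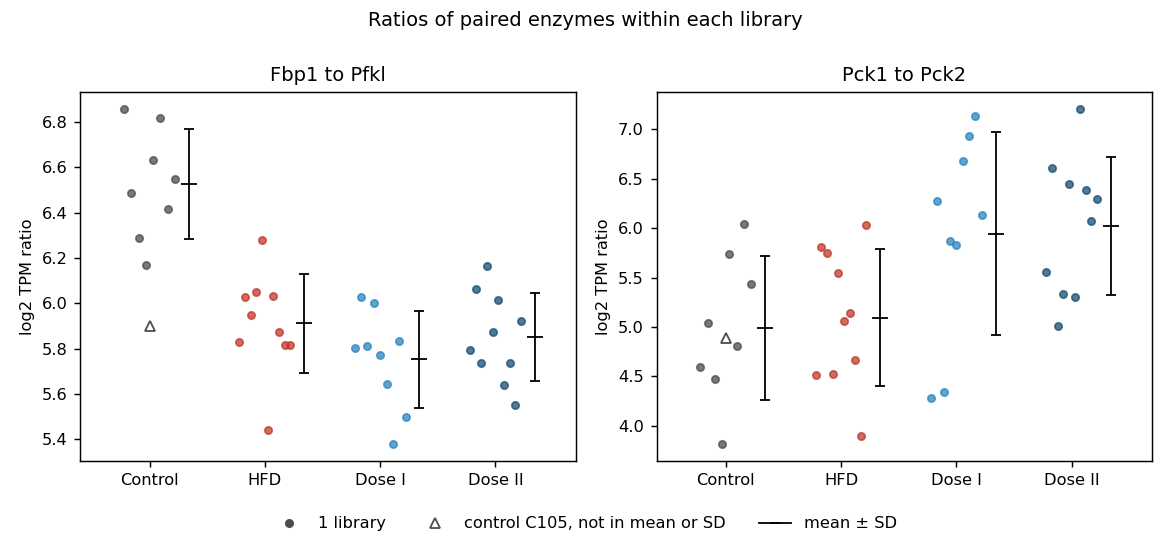
Log2 ratio of TPM within each library for Fbp1 to Pfkl and for Pck1 to Pck2, with mean ± SD beside each group and control C105 as an open triangle (axes do not start at 0). The ratio of Fbp1 to Pfkl has a mean of 6.53 in the 8 controls and of 5.75 to 5.91 in the HFD-fed groups, and the ratio of Pck1 to Pck2 a mean of 4.99 and 5.09 without CMA and of 5.94 and 6.02 with it.

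Across animals of the same group, the 6 genes were at most moderately correlated. Of the 15 pairs, the strongest correlations of log2 CPM after removal of the group means were -0.50 between Pfkfb1 and Slc2a2, 0.40 between Fbp1 and Pfkl and -0.35 between Pck1 and Pck2, over 37 libraries that share normalisation and length trend within each library. All others lay between -0.24 and 0.29. Of 9098 other genes, those most like Pck1 by the same measure were Cdca7 (r = 0.80), Upp2 (0.73) and Skp2 (0.71). Pck2 was most like Glul, the glutamine synthetase of pericentral hepatocytes (0.71), Crygc (0.69) and Src (0.69). For Fbp1 they were Aldh2 (0.77), Slc25a1, the mitochondrial citrate carrier (0.75) and Khk, ketohexokinase, which brings fructose into the same pathway (0.75). Pfkl was most like Nucb1 (0.87), Os9 (0.85) and Ppp5c (0.84), and 286 genes had a correlation above 0.6 with it. Slc2a2 was most like Kdm1b (0.79), Atrx (0.78) and Agxt2 (0.77), with 141 genes above 0.6, and Pfkfb1 like Marveld1 (0.74), Zkscan6 (0.73) and Cox7a2l (0.68). These values describe the libraries, and the genes were picked as the highest of many.

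The remaining enzymes of the pathway gave the setting for the 6. Of 37 other enzymes and transporters listed, 20 were tested. In HFD against control 4 rose and 2 fell, beside 36.2% of all genes called (1 and 1 over all 38 libraries, beside 15.6%). The median log2 fold change of the 20 was 0.01 against 0.01 for all genes. Gckr, a regulatory protein of hepatic glucose phosphorylation, rose (0.30, adjusted p = 0.0291), as did Ldhb, a lactate dehydrogenase subunit (0.28, adjusted p = 0.00902). Pgk1, phosphoglycerate kinase, fell (-0.24, adjusted p = 0.0611). Of these 3, Gckr also passed over all 38 libraries (adjusted p = 0.0653). Among enzymes that act in a single direction, the following 3 did not pass in HFD against control: G6pc, which releases free glucose, was at -0.26 (-0.70 to 0.18), Pklr, pyruvate kinase, at -0.21 (-0.66 to 0.24) and Pcx, pyruvate carboxylase, at -0.08 (-0.24 to 0.07).

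In each dose against HFD, none of the 20 other enzymes passed, beside 0.187% of all genes called at Dose I and 5.63% at Dose II. With shares this low, few or none of 20 genes would be called at the background rate. The smallest adjusted p values at Dose II were those of Slc2a1, another glucose carrier (log2 fold change 0.68, adjusted p = 0.247), Pgam1 (0.24, 0.258), Pfkfb3, a sister of Pfkfb1 (-0.51, 0.289), and Eno3 (-0.23, 0.353). G6pc, the partner of Pck1 at the end of gluconeogenesis, was at -0.22 at Dose I (-0.65 to 0.20) and at -0.07 at Dose II (-0.49 to 0.34). Against control, 4 of the 20 rose and 3 fell at Dose I, and 5 rose and 4 fell at Dose II, where 40.7% and 47.4% of all genes changed, so these counts lie close to the background. Among them, G6pc fell at Dose I (-0.48, adjusted p = 0.0954) and Pklr at both doses (-0.51, adjusted p = 0.0899, and -0.55, adjusted p = 0.0475). Over all 38 libraries only Pklr at Dose II of these 3 calls passed (adjusted p = 0.0836).

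Among 22 tested regulators of hepatic glucose genes, 4 rose and 5 fell in HFD against control, a count close to the background of 36.2%. Over all 38 libraries 2 rose and 2 fell, beside 15.6%. The median log2 fold change of the 22 over 37 libraries was 0.08 against 0.01 for all genes. Mlxipl, the carbohydrate response factor ChREBP, rose (0.56, adjusted p = 0.000208), and Irs1, the insulin receptor substrate, fell (-1.21, adjusted p = 0.000302). Onecut1, a hepatocyte transcription factor, fell (-0.79, adjusted p = 0.000742), as did Prkaca, the catalytic subunit of protein kinase A through which glucagon acts (-0.33, adjusted p = 0.00608). Over all 38 libraries the first 3 of these passed and Prkaca did not (adjusted p = 0.103). In each dose against HFD none of the 22 passed, beside 0.187% of all genes called at Dose I and 5.63% at Dose II. The smallest adjusted p values at Dose II were those of Mlxipl (0.28, 0.109), Crtc2, a coactivator of the cyclic AMP response (0.26, 0.122), and Cebpa (0.59, 0.146). In the mean of both doses against HFD, the comparison added after values were seen, 1 of the 22 passed. This count is close to the background of 4.91% of all genes. The gene was Mlxipl, which rose (0.30, adjusted p = 0.0551), also over all 38 libraries (adjusted p = 0.0809), where 2.42% of all genes changed.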

How the data were processed

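Reads of hamster liver RNA had been quantified with kallisto against the Ensembl transcripts of MesAur1.0 by the authors, who deposited estimated counts per gene symbol, not normalised. For the same 14631 symbols the authors also deposited TPM, that is estimated counts divided by transcript length and scaled to each library. All 38 columns were matched to a labelled sample. Genes without a symbol and the sequences of MesAur1.0 were not used here.

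Estimated counts were rounded, filtered with filterByExpr on the 4 groups, normalised by TMM and tested with edgeR 4.0.16 in R 4.3.3 (quasi-likelihood F test, 1 coefficient per group). Adjusted p under 0.1, the threshold that the study used with DESeq2, counted as changed. The fit held 37 libraries, without control C105, and 9099 genes, and the fit over all 38 held 9045. SEs are the size of the log2 fold change over the square root of F, and intervals are 2 SE on either side. Normalised CPM used TMM factors of all 38 libraries. Depth was 4.08e+06 to 1.04e+07 estimated counts per library. The test was run on simulated data first. No pair of libraries in a group agreed within counting noise (chi-square per gene of at least 6.71).

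Alternatives were DESeq2 1.42.0, RLE factors, no filter, limma-trend 3.58.1 on log2(TPM + 1) or log2(TPM + 0.1), removal of each library's length trend (lowess span 0.3), the compared groups alone, adjusted p under 0.05 and leaving out every library in turn. Gene lists were matched by symbol. The named genes of the 2 pathway lists are the 4 with the smallest p in HFD against control and in Dose II against HFD, with G6pc, Pklr and Pcx, and some that fell under this rule are not reported here. Others of these lists that passed elsewhere, and the cell markers and Phgdh, were named after their values were seen. For each of the 6 genes the 3 with the highest correlation of log2 CPM (prior count 2) were named. The 6 genes, the lists and C105 were chosen with earlier results of these data known.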

Additional observations from a re-analysis of the deposited data

Results flagged for a closer look

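Levels of the 6 genes were searched for libraries far from the rest of their group, with Dixon's 95% limits, in 24 groups of 9 or 10 libraries, and 4 stood out. Chance alone flags about 1 in 20 such groups. Control C105 accounted for 3 of the 4. It had 2643 CPM of Fbp1, where the next control had 1927 CPM. It had 94.3 CPM of Pfkl, where the next had 53.97 CPM, and 182 CPM of Slc2a2, where the next had 452 CPM. In TPM the level of Fbp1 in C105 was 1393, inside the range of the other controls (1304 to 1424 TPM), whereas Pfkl (23.4 TPM, others 11.7 to 18.9 TPM) and Slc2a2 (89.8 TPM, others 306 to 462 TPM) stayed outside it. The TMM factor of C105 was 0.7905. The remaining one was control C106, with 111.8 CPM of Pfkfb1, where the next control had 90.6 CPM.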

How the results depend on the processing

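No paired analysis was possible because no library number of the labels occurs in more than 1 group. Without C105, 2 of the 6 genes changed in HFD against control, and 0 did over all 38 libraries, also with the length trend removed or with DESeq2. Libraries left out in turn gave 1 to 2. In Dose II against HFD the count went from 0 to 1 with DESeq2 and with the compared groups alone (0 to 1 over left-out libraries). In both doses against HFD it went from 1 to 0 over all 38 libraries, also with the length trend removed, and at a threshold of 0.05 (0 to 1 over left-out libraries). The counts of 3 for each dose against control stayed at 3 over left-out libraries and ran from 2 to 4 over the 11 other alternatives. Slc2a2 lost its call in 3 of the 11 at each dose. Fbp1 gained one in 3 at Dose I and Pfkfb1 in 2 at Dose II. The cause of these shifts was not tested. Counts of all genes changed moved more. HFD against control gave 3296 genes and 1409, 1456 or 1516 over 38 libraries (edgeR, length trend removed, DESeq2). Dose I against HFD gave 17, from 5 to 80 over these alternatives and from 4 (without H113, H117 or H118) to 81 (without DI122) over left-out libraries, 13 of which moved it by over 1.5 times. Dose II against HFD gave 512, from 230 (threshold of 0.05) to 641 (DESeq2) over these alternatives, with 244 over 38 libraries. Left-out libraries gave 300 to 629 there, with 300 without DII135, 328 without H114 and 339 without DII136. Both doses against HFD gave 447, from 219 (38 libraries) to 566 (limma with a pseudocount of 1) over these alternatives. Left-out libraries gave 269 to 562 there, with 269 without H114 and 290 without H117.

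Of the log2 fold changes of the 6 genes under the alternatives other than left-out libraries, 426 kept sign and side of the threshold, 15 lost the call and 7 gained it. The 14 that changed sign were uncalled values near 0. They were Pck2 in HFD against control over 38 libraries (-0.0671, with the length trend removed -0.0817, with DESeq2 -0.0747) and over 37 with the length trend removed (-0.0378), Pfkfb1 in Dose II against HFD in limma (-0.0313 and -0.0326 with pseudocounts of 1 and 0.1), and between the doses Pck2 without a filter (0.00013) and in limma (0.00527 and 0.00697) and Pfkl in limma (-0.0142 and -0.0149) and with the compared groups alone (-0.00566). Fbp1 in both doses against HFD was at -0.0393 with either pseudocount.

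Left-out libraries turned the sign of uncalled values as well. Pck2 in HFD against control ran from -0.0445 to 0.0990, Fbp1 and Slc2a2 in Dose I against HFD from -0.0799 to 0.0106 and from -0.101 to 0.00451, Pfkfb1 in Dose II against HFD from -0.00866 to 0.0728, and Fbp1 in both doses against HFD from -0.0380 to 0.0580. Between the doses Pck1 ran from -0.0681 to 0.183, Pck2 from -0.148 to 0.152 and Pfkl from -0.0387 to 0.0484. Against control, Pfkfb1 at Dose I ran from -0.124 to 0.0128 and Fbp1 at Dose II from -0.0500 to 0.00441. The depth of 4.08e+06 to 1.04e+07 estimated counts limits Pck2 most, with 78 to 310 counts per library.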
